A study of Homo sapiens with 8 samples.

Results

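The genes described here encode 9 transcription factors and cofactors of the GATA, RUNX and ETO families, GATA2, GATA3, ZFPM1, RUNX1, RUNX2, RUNX3, CBFB, CBFA2T2 and CBFA2T3. The rule lists them by symbol, and they are 9 of the 64252 genes in the count tables. RNA was sequenced from 6T-CEM and J.gamma1, established human T-cell acute lymphoblastic leukemia (T-ALL) cell lines that derive from CCRF-CEM and Jurkat. J.gamma1 is a Jurkat derivative that lacks phospholipase C gamma 1, and each line is thus the progeny of a single patient's leukemia. In each line, cells carried a lentiviral control shRNA (shControl in the labels, sh-NC here) or an shRNA against LDB1 (shLDB1 in the labels, sh-LDB1 here), after puromycin selection. Each of the 4 groups had 2 libraries, and no source used here says whether they came from separate cultures, so p-values measure the spread between these libraries, which may be technical.

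GATA factors are zinc finger proteins that bind the core letters GATA. GATA3 is needed throughout T-cell development, GATA2 acts in blood stem and progenitor cells and in mast cells, and ZFPM1 (FOG1) is a cofactor that binds the amino-terminal zinc finger of GATA factors. RUNX1, RUNX2 and RUNX3 share the runt domain, bind TGTGGT and similar letters, and gain DNA affinity from their common partner CBFB, which does not bind DNA itself. RUNX1 is active in blood stem cells and thymocytes, RUNX3 in CD8 and cytotoxic T cells, and RUNX2 is best known from bone. CBFA2T2 and CBFA2T3 belong to the ETO family, whose founding member was found fused to RUNX1 in acute myeloid leukemia, and they bring corepressors and histone deacetylases to DNA-bound factors. LDB1 holds LIM-only proteins, GATA factors, bHLH proteins such as TAL1 and ETO proteins together in complexes that link enhancers to promoters. The comparison of sh-LDB1 with sh-NC asked how the levels of these partners moved when LDB1 fell.

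The promoter letters of the members are shown first, as a description. Knockdown responses differed between the cell lines for RUNX1, RUNX2, RUNX3 and CBFA2T2. RUNX letters were found in promoters of RUNX2, RUNX3 and GATA3, and the difference for GATA3 was not called. The searched promoters of RUNX1 and CBFA2T2 held none, and a link between the letters and the responses was not tested. RefSeq promoters on GRCh38.p14, each 250 bases before to 50 bases after an annotated start, were found for 8 of the 9 members, 16 promoters in all, and CBFB was not matched. They were searched on both strands for the RUNX letters TGTGGT, which appear as ACCACA when the site is on the other strand, and for the GATA letters GATAA. Of the 35116 promoters in the table, 13.1% held the RUNX letters at least once, 1.31% at least 2 times and 5 promoters (0.0142%) at least 4 times. Of the 16 promoters of the members, 3 held them, namely a RUNX2 promoter with 4 matches, a RUNX3 promoter with 2 and a GATA3 promoter with 1. Shown for RUNX2 and RUNX3 are the stretches before the first GENCODE exon of the gene, for RUNX2 also 30 bases around each match further on, which lie in its first annotated exon, and for GATA3 the bases before that RefSeq start. The RUNX2 stretches lie on the plus strand at chr6:45328080-45328156, chr6:45328231-45328260 and chr6:45328338-45328367, the RUNX3 stretch on the minus strand at chr1:24965122-24965260, and the GATA3 stretch on the plus strand at chr10:8050986-8051235, inside the gene and outside its annotated exons. Each is written 5′ to 3′ with the RUNX letters in capitals:
RUNX2, upstream: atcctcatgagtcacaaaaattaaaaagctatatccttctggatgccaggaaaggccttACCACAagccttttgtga
RUNX2, site: gtgaggtcacaaACCACAtgattctgcctc
RUNX2, tandem site: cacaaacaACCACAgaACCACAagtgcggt
RUNX3, upstream: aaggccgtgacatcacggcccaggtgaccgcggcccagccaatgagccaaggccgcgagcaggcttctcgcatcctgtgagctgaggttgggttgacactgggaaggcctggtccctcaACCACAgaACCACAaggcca
GATA3, upstream: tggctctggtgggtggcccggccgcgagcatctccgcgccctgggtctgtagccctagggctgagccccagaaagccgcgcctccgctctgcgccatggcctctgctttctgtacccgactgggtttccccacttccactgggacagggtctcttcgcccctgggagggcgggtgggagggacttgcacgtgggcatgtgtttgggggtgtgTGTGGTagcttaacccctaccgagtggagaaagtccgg

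In RUNX2 the matches began at positions -191, -87, 17 and 25 from the start, and in RUNX3 at -131 and -123. Both genes therefore held a pair of RUNX letters in tandem with 2 bases between them, ACCACANNACCACA, where N is any base. This tandem form, which was noticed in the printed letters and searched afterwards, occurred in 4 of the 35116 promoters (0.0114%) on either strand. The RUNX2 and RUNX3 promoters in which it was noticed are among these 4, so the share is not an independent background. The GATA3 match began at position -38. GATAA, which 22.7% of all promoters held, occurred in 1 of the 16 promoters of the members, another GATA3 promoter. The 3 promoters differed in base composition, with 42.7% G and C in RUNX2, 66.3% in RUNX3 and 63% in GATA3. Matches are a description of the letters in these windows, and the gene counts do not tell which of a gene's promoters was used. For RUNX1 only the window chr21:34888650-34888949 was searched, while the gene is annotated up to 36004667 on the minus strand. For CBFA2T2 only the window chr20:33562092-33562391 was searched, while the gene is annotated from 33490075 on the plus strand. For CBFA2T3 only the window chr16:88941301-88941600 was searched, while the gene is annotated up to 88977207 on the minus strand. Whether RUNX1, CBFA2T2 or CBFA2T3 holds such letters at a start further out is therefore not shown.

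The depth was similar in all libraries, with total counts between 26160492 and 30604977, and each member had at least 61 counts in every library. All 9 members passed the filter on low counts in every fit. Levels are given as normalized CPM, the counts of a gene per 1000000 counts of the library after TMM scaling over the 8 libraries. Changes are log2 fold changes from the quasi-likelihood test of edgeR, and adjusted p-values are by the Benjamini-Hochberg method over every gene tested. LDB1, the targeted gene, was at 107 and 111 CPM in the 6T-CEM sh-NC libraries against 37.0 and 35.0 with sh-LDB1. In J.gamma1 it went from 60.2 and 58.8 CPM to 33.2 and 30.8, a log2 fold change of -0.89, against -1.60 in 6T-CEM, and the difference between the lines was 0.70 (standard error 0.095, adjusted p = 0.000237). Of 9 T-cell markers, 8 in 6T-CEM and all 9 in J.gamma1 were at 1 CPM or more, CD2 being the exception at 0.309 to 0.490 CPM in 6T-CEM. Their summed level was higher with sh-LDB1, at 2331 to 2340 CPM against 1778 to 1867 in 6T-CEM and at 3154 to 3155 against 2312 to 2313 in J.gamma1. Single markers went the other way, CD5 in 6T-CEM (82.0 and 87.5 CPM with sh-NC against 54.9 and 61.4 with sh-LDB1), and in J.gamma1 LCK (741 and 778 against 579 and 584) and CD3D (353 and 376 against 309 and 316). Also lower in J.gamma1 were CD2 (6.2 and 6.0 against 3.7 and 5.2) and, by little, CD5 (37.0 and 37.5 against 34.8 and 36.9). The 4 myeloid markers summed to at most 1.26 CPM and the 4 erythroid markers to at most 0.630 CPM, with HBB and ALAS2 at 0 in all libraries. The 4 epithelial markers summed to at most 2.47 CPM. Among the B-cell markers, MS4A1 was at most 0.102 CPM, PAX5 was at 2.66 and 3.27 CPM with sh-NC against 1.54 and 2.27 with sh-LDB1 in 6T-CEM and at 0 in J.gamma1, and CD79A stood at 23.2 to 23.4 CPM with sh-NC and 36.9 to 40.9 with sh-LDB1 in 6T-CEM, and between 65.4 and 75.6 CPM in J.gamma1. The part of these markers in the results below was not tested. In bulk RNA, fewer cells with a transcript and less of it per cell cannot be told apart.

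In LDB1-knockdown 6T-CEM cells 6 of the 9 genes were lower than in the control group, namely GATA2, GATA3, RUNX1, RUNX2, RUNX3 and CBFA2T3, and 0 were called higher. Across all 16059 genes tested in this line, 16.2% were called lower and 15.1% higher. In J.gamma1 6 genes were lower, namely GATA2, GATA3, RUNX1, RUNX3, CBFA2T2 and CBFA2T3, and 2 were higher, RUNX2 and CBFB, against 26.5% lower and 25.0% higher among 17215 genes. A log2 fold change beyond 1 downward was reached by RUNX3 in 6T-CEM, where 2.39% of all genes passed it, and by GATA2 and CBFA2T3 in J.gamma1, where 7.19% did. The 9 genes had a median log2 fold change of -0.54 in the former line and -0.40 in the latter, beside medians over all genes of 0.0027 and -0.00025. Lower in both lines were 5 of the 9, GATA2, GATA3, RUNX1, RUNX3 and CBFA2T3, against 10.5% of the 14902 genes tested in both, and 1, RUNX2, was called in opposite directions, against 3.34%. The 0 called higher in 6T-CEM by edgeR became 1 at an unadjusted p under 0.05 and 1 with DESeq2, in both cases CBFB.

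**Figure D1:**
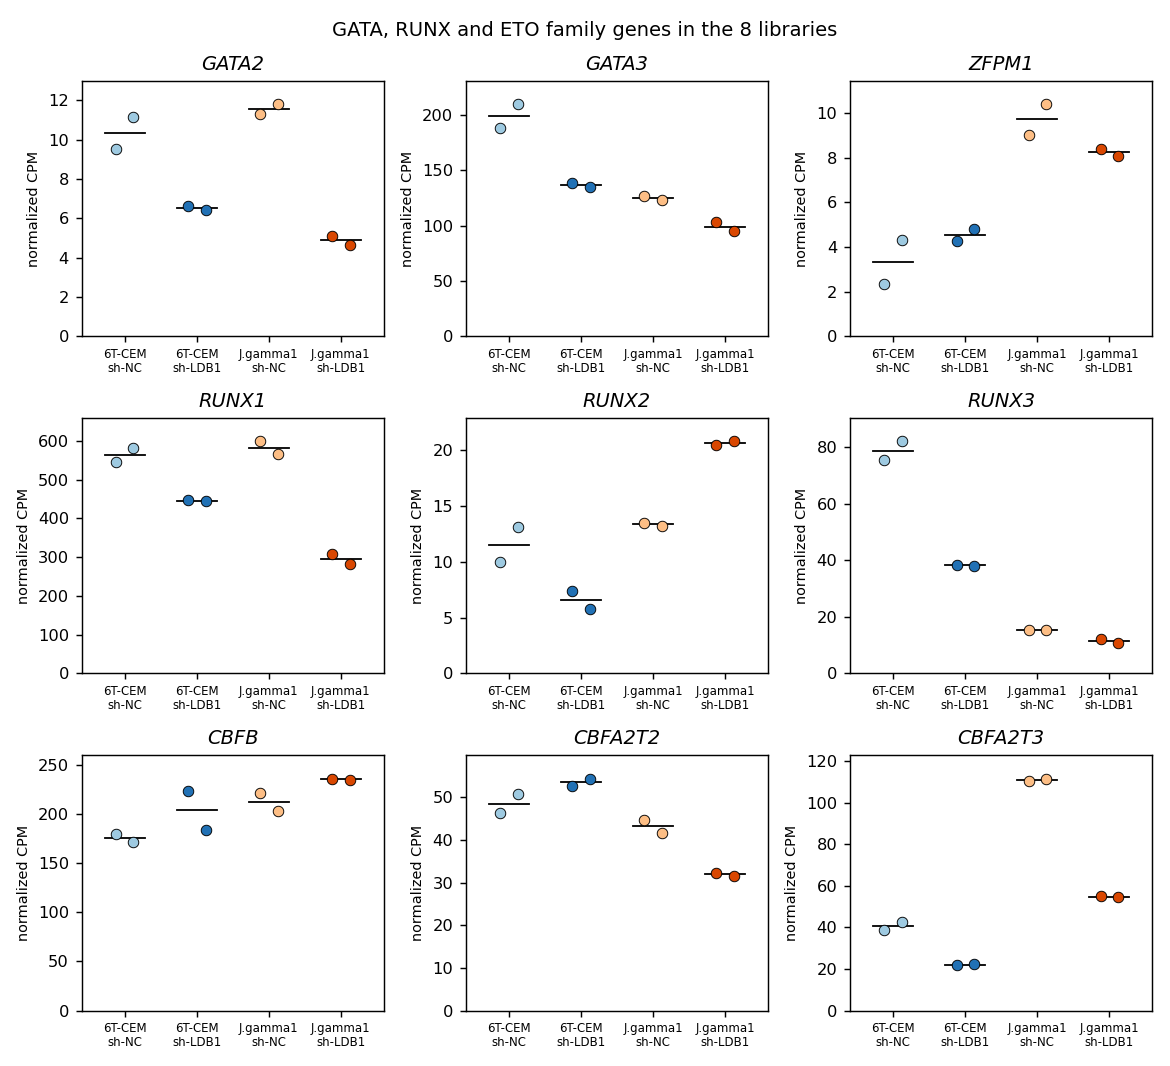
Normalized CPM of the 9 genes in each of the 8 libraries, on linear axes that start at 0, with points for libraries and a bar for the mean of 2. RUNX1, RUNX3, GATA2, GATA3 and CBFA2T3 stood lower with sh-LDB1 in both lines, while RUNX2 stood lower in 6T-CEM (7.38 and 5.77 CPM against 9.97 and 13.1) and higher in J.gamma1 (20.4 and 20.8 against 13.5 and 13.2).

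GATA3 (ENSG00000107485, chromosome 10 from 8045378 to 8075198 on the plus strand of GRCh38) was the GATA factor with the highest level. Its level was 188 and 210 CPM in the 6T-CEM sh-NC libraries against 138 and 135 with sh-LDB1, and 127 and 123 in the J.gamma1 sh-NC libraries against 103 and 95.1 with sh-LDB1. The groups did not overlap in either line, and the 4 groups followed each other from 6T-CEM sh-NC down to J.gamma1 sh-LDB1 without overlap. GATA3 fell by 0.54 on the log2 scale in 6T-CEM (standard error 0.063, 95% interval -0.67 to -0.40, adjusted p = 1.4e-05 from edgeR), to 68.9% of its control level. In J.gamma1 it fell by 0.33 (standard error 0.058, interval -0.46 to -0.20, adjusted p = 0.000711), to 79.6%. The difference between the lines, 0.21 with an interval from 0.016 to 0.40, did not pass the adjusted test (adjusted p = 0.111), and without 6T-CEM sh-NC replicate 1 it did (0.29, adjusted p = 0.041).

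GATA2 (ENSG00000179348, chromosome 3 from 128479427 to 128493201, minus strand) was read at a much lower level. It was at 9.55 and 11.1 CPM with sh-NC against 6.62 and 6.44 with sh-LDB1 in 6T-CEM, and at 11.3 and 11.8 with sh-NC against 5.11 and 4.65 with sh-LDB1 in J.gamma1. Both sh-LDB1 groups lay below both sh-NC groups. GATA2 fell by 0.66 in 6T-CEM (standard error 0.17, adjusted p = 0.00813) and by 1.23 in J.gamma1 (standard error 0.16, adjusted p = 6.58e-05), where 42.5% of the control level remained. Without 6T-CEM sh-NC replicate 2 the adjusted p in 6T-CEM was 0.0958. The difference between the lines was -0.58 (interval -1.06 to -0.091, adjusted p = 0.082). An antisense gene, GATA2-AS1, shares 78 exon bases with GATA2, and its counts were 54 and 24 in the J.gamma1 sh-NC libraries, 6 and 5 with sh-LDB1, and at most 4 in 6T-CEM. The counting is not stated to use strand, so reads from these bases cannot be assigned to one of the genes. The GATA2 counts themselves were 358 and 372 with sh-NC against 143 and 137 with sh-LDB1 in J.gamma1.

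ZFPM1 (ENSG00000179588, chromosome 16 from 88453280 to 88537031, plus strand), the GATA cofactor, differed between the lines and was called in neither knockdown. It was at 2.35 and 4.31 CPM with sh-NC against 4.25 and 4.79 with sh-LDB1 in 6T-CEM, where the groups overlapped, and at 9.04 and 10.4 against 8.40 and 8.08 in J.gamma1, where they did not. The log2 fold change was 0.44 in 6T-CEM (interval -0.15 to 1.04, adjusted p = 0.255) and -0.23 in J.gamma1 (interval -0.56 to 0.097, adjusted p = 0.22). The 6T-CEM sh-NC libraries were far apart, with 61 and 116 counts. Without sh-NC replicate 1 the change was 0.077 (adjusted p = 0.873) and the difference between the lines -0.30 (adjusted p = 0.53). Without sh-NC replicate 2 the change was 0.95 (adjusted p = 0.0443) and the difference between the lines -1.18 (adjusted p = 0.0182) in place of -0.68 (adjusted p = 0.183).

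RUNX1 (ENSG00000159216, chromosome 21 from 34787801 to 36004667, minus strand) had the highest CPM of the 9 genes. It was read at 544 and 581 CPM with sh-NC against 446 and 444 with sh-LDB1 in 6T-CEM. In J.gamma1 it was at 598 and 566 CPM with sh-NC against 309 and 284 with sh-LDB1. The sh-NC libraries of the lines overlapped, the 6T-CEM sh-LDB1 libraries lay below them and the J.gamma1 sh-LDB1 libraries lay lowest. RUNX1 fell by 0.33 in 6T-CEM (standard error 0.053, adjusted p = 0.000239), to 79.4% of control, and by 0.97 in J.gamma1 (standard error 0.054, adjusted p = 1.81e-07), to 51.0%. The fall was larger in J.gamma1, with a difference of -0.64 (standard error 0.074, interval -0.80 to -0.48, adjusted p = 8.71e-05).

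RUNX2 (ENSG00000124813, chromosome 6 from 45328157 to 45664349, plus strand), whose promoter with 4 RUNX matches is described above, was called in opposite directions in the lines. In 6T-CEM it was at 9.97 and 13.1 CPM with sh-NC against 7.38 and 5.77 with sh-LDB1, a fall of 0.81 (standard error 0.19, interval -1.21 to -0.41, adjusted p = 0.00433). In J.gamma1 it was at 13.5 and 13.2 CPM with sh-NC against 20.4 and 20.8 with sh-LDB1, a rise of 0.63 (standard error 0.10, interval 0.40 to 0.86, adjusted p = 0.000454). No groups overlapped, and the J.gamma1 sh-LDB1 libraries stood highest and the 6T-CEM sh-LDB1 libraries lowest. The difference between the lines was 1.44 (standard error 0.23, adjusted p = 0.000723), or 2.71-fold. The fall in 6T-CEM lost its call without sh-NC replicate 2 (-0.59, adjusted p = 0.0976) and without sh-LDB1 replicate 2 (-0.64, adjusted p = 0.0532). The raw counts were 259 and 352 against 215 and 165 in 6T-CEM.

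RUNX3 (ENSG00000020633, chromosome 1 from 24899511 to 24965121, minus strand) was the RUNX gene that separated the lines most. It was at 75.4 and 82.0 CPM with sh-NC against 38.4 and 38.0 with sh-LDB1 in 6T-CEM, and at 15.3 and 15.2 with sh-NC against 12.3 and 10.7 with sh-LDB1 in J.gamma1. Neighbouring groups in this order did not overlap. RUNX3 fell by 1.04 in 6T-CEM (standard error 0.076, interval -1.20 to -0.88, adjusted p = 1.26e-07), to 48.7% of control. In J.gamma1 it fell by 0.40 (standard error 0.13, interval -0.68 to -0.13, adjusted p = 0.0202), to 75.5%. This J.gamma1 call was lost with DESeq2 (adjusted p = 0.0642) and without J.gamma1 sh-NC replicate 1 (0.0709), sh-NC replicate 2 (0.0562) or sh-LDB1 replicate 2 (0.123). The change in J.gamma1 minus that in 6T-CEM was 0.63 (standard error 0.12, adjusted p = 0.00276), in the opposite direction to the difference in RUNX1.

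CBFB (ENSG00000067955, chromosome 16 from 67028984 to 67101058, plus strand), the shared partner, did not fall with RUNX1 and RUNX3, which were lower in both lines. It was at 180 and 171 CPM with sh-NC against 224 and 184 with sh-LDB1 in 6T-CEM, and at 221 and 203 with sh-NC against 236 and 234 with sh-LDB1 in J.gamma1. The sh-LDB1 libraries lay above the sh-NC libraries in each line, with 1 of them high in 6T-CEM, and the 6T-CEM sh-LDB1 and J.gamma1 sh-NC groups overlapped. The log2 fold change was 0.22 in 6T-CEM (interval 0.022 to 0.42, adjusted p = 0.0902) and 0.16 in J.gamma1 (interval 0.039 to 0.27, adjusted p = 0.0294), and the difference between the lines was -0.067 (interval -0.33 to 0.19). The call depended on the setting. In 6T-CEM the change was 0.078 (adjusted p = 0.459) without sh-LDB1 replicate 1. There the call was gained with DESeq2 (0.0309), with the replicate number as a block (0.0151) and without sh-LDB1 replicate 2 (0.35, adjusted p = 0.00302), and in J.gamma1 it was lost in a fit to all 8 libraries (0.168), without a filter (0.074), and without sh-NC replicate 2 (0.089, adjusted p = 0.287), sh-LDB1 replicate 1 (0.0916) or sh-LDB1 replicate 2 (0.0665).

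CBFA2T3 (ENSG00000129993, chromosome 16 from 88874858 to 88977207, minus strand), also known as ETO2, fell by similar amounts in both lines. It was at 38.6 and 42.7 CPM with sh-NC against 22.1 and 22.2 with sh-LDB1 in 6T-CEM, and at 110 and 112 with sh-NC against 54.9 and 54.8 with sh-LDB1 in J.gamma1. All 4 groups were apart, and the J.gamma1 sh-LDB1 libraries were still above the 6T-CEM sh-NC libraries. The fall was 0.87 in 6T-CEM (standard error 0.093, adjusted p = 5.66e-06) and 1.01 in J.gamma1 (standard error 0.055, adjusted p = 1.39e-07), to 54.6% and 49.7% of control. The difference of -0.14 had an interval from -0.35 to 0.070 (adjusted p = 0.341). A noncoding gene on the other strand, ENSG00000259881, shares 501 exon bases with CBFA2T3 and had at most 2 counts in a library.

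CBFA2T2 (ENSG00000078699, chromosome 20 from 33490075 to 33650036, plus strand), the other ETO gene measured here, moved in J.gamma1. It was at 44.7 and 41.7 CPM with sh-NC against 32.4 and 31.5 with sh-LDB1 in J.gamma1, a fall of 0.43 (standard error 0.077, adjusted p = 0.000817). In 6T-CEM it was at 46.2 and 50.7 CPM against 52.8 and 54.4, and the log2 fold change of 0.15 (interval -0.019 to 0.32, adjusted p = 0.173) was not called. The groups did not overlap in either line. The difference between the lines was -0.58 (standard error 0.11, interval -0.81 to -0.35, adjusted p = 0.0018).

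**Figure D2:**
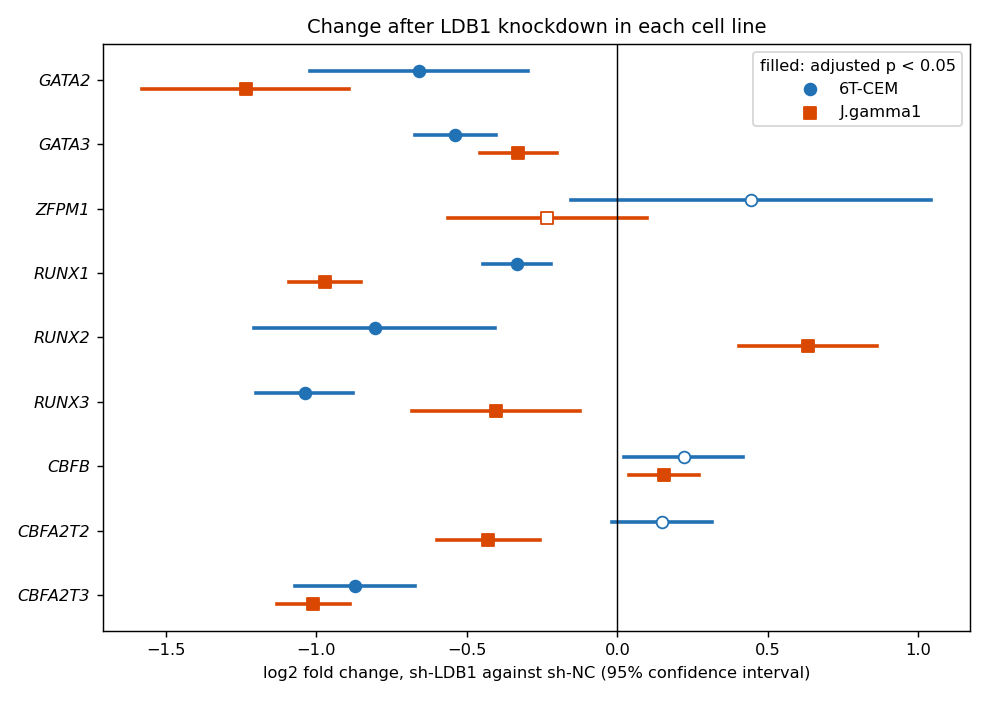
Log2 fold change of sh-LDB1 against sh-NC with its 95% confidence interval for the 9 genes in 6T-CEM (circles) and J.gamma1 (squares), filled where the adjusted p was under 0.05. The intervals of RUNX2 lay on opposite sides of 0, those of CBFA2T3 overlapped at -0.87 and -1.01, and RUNX1 fell more in J.gamma1 (-0.97) while RUNX3 fell more in 6T-CEM (-1.04).

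The test of the difference between the lines called 4 of the 9 genes, RUNX1, RUNX2, RUNX3 and CBFA2T2, where 24.4% of 18552 genes were called. This test shares its libraries with the tests within the lines. LDB1 was at 33.1% of its control level in 6T-CEM and at 54.0% in J.gamma1. Cell line and strength of the knockdown therefore cannot be told apart in these differences. The sh-NC groups of the 2 lines were then compared, with the same control libraries. Of the 9 genes 5 differed, GATA3, ZFPM1, RUNX3, CBFB and CBFA2T3, and 65.7% of all genes did, so that most genes differed between the lines before any knockdown. RUNX3 was 5.16-fold lower in J.gamma1 (log2 difference -2.37, standard error 0.087, adjusted p = 3.25e-10), and GATA3 was 1.59-fold lower (-0.67, standard error 0.061, adjusted p = 1.04e-06). CBFA2T3 was 2.73-fold higher in J.gamma1 (1.45, standard error 0.067, adjusted p = 2.28e-09) and ZFPM1 2.92-fold higher (1.54, standard error 0.25, adjusted p = 0.00014). CBFB was 1.21-fold higher (0.27, adjusted p = 0.0137), a call lost without 6T-CEM sh-NC replicate 2 (adjusted p = 0.0945) or J.gamma1 sh-NC replicate 1 (0.0883). GATA2 (0.16, interval -0.18 to 0.49), RUNX1 (0.050, interval -0.064 to 0.16), RUNX2 (0.21, interval -0.14 to 0.56) and CBFA2T2 (-0.17, interval -0.33 to -0.0053) were not called. CBFA2T2 passed without 6T-CEM sh-NC replicate 1 (-0.24, adjusted p = 0.0349).

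Levels of different genes were compared as normalized CPM per kilobase of the union of annotated exons. On this scale GATA3 led in the 6T-CEM sh-NC group at 58.6 ± 4.44 (SD, n = 2), ahead of CBFB at 37.7 ± 1.35 and RUNX1 at 36.1 ± 1.66, and the last pair were within their spread of each other. In J.gamma1 sh-NC the order began with CBFB at 45.6 ± 2.71, and RUNX1 at 37.4 ± 1.45 and GATA3 at 36.8 ± 0.919 did not differ beyond their spread. CBFA2T3 followed in J.gamma1 at 18.6 ± 0.156, whereas RUNX3 held that place in 6T-CEM at 16.0 ± 0.940. GATA2, RUNX2 and ZFPM1 were the lowest of the 9 in both control groups, between 0.540 and 2.35 CPM per kilobase on average. The place of RUNX1 depended on its length, because its exon union is 15574 bases and its longest transcript 7274. Per kilobase of the longest transcript RUNX1 led both control groups, at 77.3 (6T-CEM) and 80.1 (J.gamma1).

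The makeup of the RUNX family changed with the knockdown in opposite ways in the 2 lines. In 6T-CEM RUNX1 took 67.5% ± 0.516 (SD, n = 2) of the summed per-length level of the 3 RUNX genes with sh-NC and 77.0% ± 0.325 with sh-LDB1, and RUNX3 took 29.9% ± 0.156 and then 20.9% ± 0.028. In J.gamma1 RUNX1 went from 88.8% ± 0.290 to 79.7% ± 0.283, while RUNX2 went from 3.86% ± 0.070 to 10.5% ± 0.714. The libraries of these groups did not overlap. The sizes depended on the length used. Per kilobase of the longest transcript RUNX1 took 79.4% and then 86.1% in 6T-CEM, where RUNX3 took 18.6% and then 12.4%, while in J.gamma1 RUNX1 went from 93.3% to 86.9% and RUNX2 from 2.64% to 7.49%. The family's sum per kilobase was 53.5 ± 2.86 with sh-NC and 37.1 ± 0.283 with sh-LDB1 in 6T-CEM, and 42.1 ± 1.50 and 23.9 ± 1.34 in J.gamma1. The ratio of this sum to CBFB was 1.33 and 1.51 in the 6T-CEM sh-NC libraries against 0.777 and 0.934 with sh-LDB1, and 0.909 and 0.941 in the J.gamma1 sh-NC libraries against 0.489 and 0.455 with sh-LDB1. Each sh-LDB1 library thus had a lower RNA ratio of RUNX genes to CBFB than the sh-NC libraries of its line, and the same held per kilobase of the longest transcript, with 1.64 and 1.85 against 1.00 and 1.21, and 1.25 and 1.29 against 0.647 and 0.602.

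Between the ETO genes, CBFA2T3 held 57.0% ± 0.141 of the pair's per-length level with sh-NC and 39.5% ± 0.382 with sh-LDB1 in 6T-CEM. In J.gamma1 it held 80.3% ± 0.905 and 73.1% ± 0.354. The order of the ETO genes was thereby exchanged in 6T-CEM and not in J.gamma1. GATA3 held at least 93.8% of the per-length level of GATA2 and GATA3 in each library.

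**Figure D3:**
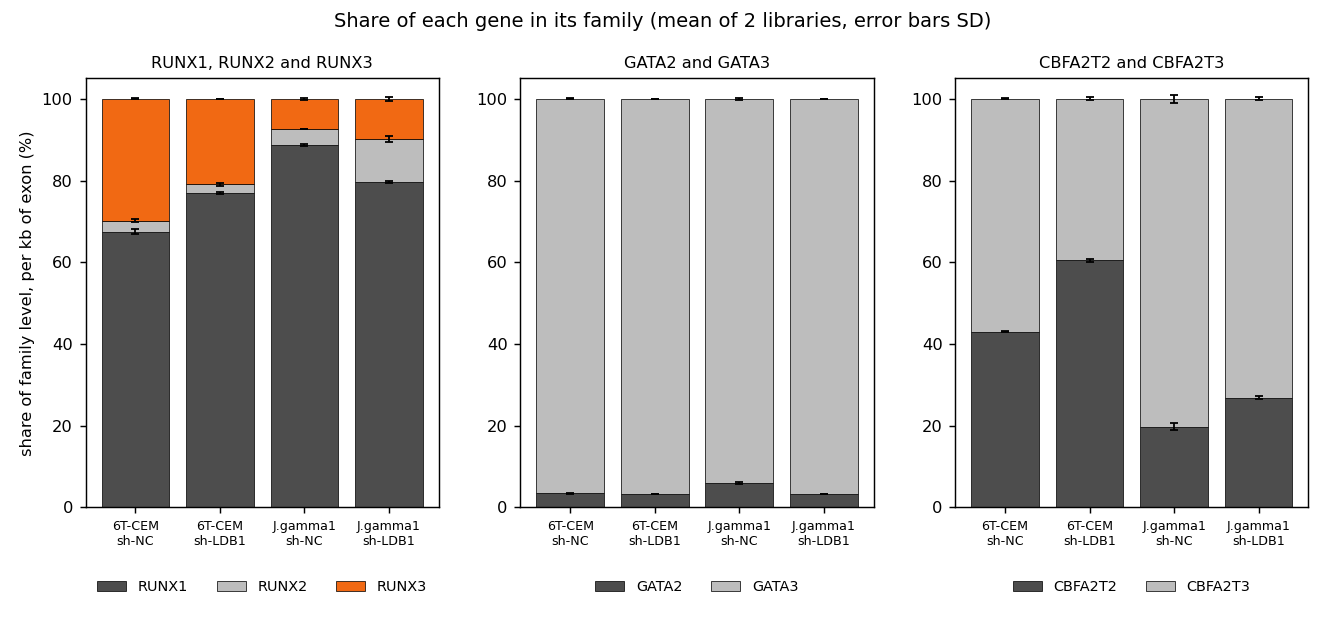
Share of each gene in the summed level per kilobase of exon of its family, as the mean of 2 libraries in each group with SD error bars. The share of RUNX1 rose from 67.5% to 77.0% in 6T-CEM and fell from 88.8% to 79.7% in J.gamma1, and CBFA2T2 passed CBFA2T3 in 6T-CEM with sh-LDB1.

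The genes whose pattern over the 8 libraries was most like that of a member were found by the root mean square difference of centred log2 CPM, among 18552 genes and as a description. For GATA3 these were FASN at 0.067, POM121 at 0.070 and DCPS at 0.073, beside a median of 0.52 over all genes. For RUNX1 they were FANCI at 0.071, PFKFB3 at 0.072 and TUT4 at 0.079 (median 0.56), for RUNX3 LINC01215 at 0.10, NBPF2P at 0.14 and DDN at 0.17 (median 1.14), and for CBFA2T3 GPR174 at 0.060, HLA-B at 0.086 and MSANTD3 at 0.092 (median 0.89).

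Corepressors and coactivators that RUNX, GATA and ETO proteins are known to bind were read from a list of 22 genes. Of 22 tested in 6T-CEM, 7 rose and 6 fell, and of 21 tested in J.gamma1, 7 rose and 7 fell, where 15.1% and 25.0% of all genes were called higher and 16.2% and 26.5% lower. The list had medians of 0.043 and 0.093 beside 0.0027 and -0.00025 over all genes. TLE4, a Groucho-type corepressor of RUNX proteins, was at 107 and 111 CPM with sh-NC against 67.9 and 68.1 with sh-LDB1 in 6T-CEM, and at 76.4 and 81.9 against 28.1 and 27.6 in J.gamma1. It fell by 0.68 (adjusted p = 1.78e-06) and 1.50 (adjusted p = 5.22e-08). Its relatives TLE2 and TLE3 fell in J.gamma1 by 0.89 and 0.56, and in 6T-CEM TLE2 was at 0.619 CPM with sh-NC and TLE3 had a log2 fold change of 0.0092 (adjusted p = 0.931). HIPK2, a kinase that modifies RUNX1 and its coactivator, rose by 0.54 in 6T-CEM (0.19 in J.gamma1, adjusted p = 0.216), SIN3B, a histone deacetylase scaffold, rose by 0.52 in J.gamma1 (0.21 in 6T-CEM, adjusted p = 0.0761). GFI1B, a repressor of blood cells, fell by 1.46 in 6T-CEM, from 1.50 and 1.78 CPM to 0.343 and 0.839. It passed the filter there through the sh-NC group, in which it was high, so its place among the 6 carries no weight. In J.gamma1 GFI1B was at 0.

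Of the LDB1 complex partners, 13 of 15 listed genes could be tested in 6T-CEM, where 2 rose and 5 fell, LDB1 included. In J.gamma1 3 of 12 rose and 6 fell, again with LDB1. The medians were -0.071 and -0.38, beside 0.0027 and -0.00025 over all genes, and the shares of all genes called lower were 16.2% in the former line and 26.5% in the latter, with 15.1% and 25.0% higher. LYL1, a bHLH protein close to TAL1, fell by 1.91 in 6T-CEM, from 45.5 and 44.7 CPM to 12.3 and 11.7, and by 2.35 in J.gamma1, from 8.92 and 7.36 to 1.39 and 1.77. TAL1, which binds DNA next to GATA factors in this complex, fell by 1.22 in J.gamma1, from 318 and 307 CPM to 134 and 133, and its log2 fold change in 6T-CEM was -0.056 (adjusted p = 0.661). IRF2BP2, a corepressor that binds with ETO2, fell by 1.26 in J.gamma1 and by 0.40 in 6T-CEM (adjusted p = 0.000709). SSBP4, of a family that binds LDB1, rose by 1.00 in J.gamma1 and by 0.38 in 6T-CEM (adjusted p = 0.000274). LMO2 and LMO4 are LIM-only proteins, and LMO2 bridges LDB1 to GATA and bHLH proteins. LMO4 fell by 0.43 in 6T-CEM and by 0.73 in J.gamma1 (adjusted p = 2.16e-05), and LMO2 fell by 0.70 in 6T-CEM and was at 0.159 CPM or less in each J.gamma1 library. LMO1, another LIM-only gene of the list, was at 0 in 6T-CEM. In J.gamma1 it was at 7.59 and 10.1 CPM with sh-NC against 4.82 and 5.20 with sh-LDB1 (-0.81, adjusted p = 0.00393 from edgeR).

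Known targets of the factors moved in both directions. Of 10 GATA1 and GATA2 targets, 6T-CEM allowed a test of 2, where 0 rose and 1 fell, and in J.gamma1 the 5 tested fell, where 26.5% of all genes did. Of these 5, NFE2, KLF1 and ITGA2B passed the filter on low counts through the sh-NC group, in which they were high, so the count carries no weight and the values are given as a description. NFE2, a bZIP factor of erythroid cells and platelets, was at 22.3 and 20.9 CPM with sh-NC against 4.05 and 4.86 with sh-LDB1 in 6T-CEM. In J.gamma1 it was at 5.64 and 4.88 CPM with sh-NC and at 0 counts in both sh-LDB1 libraries, at least 50.3-fold lower when 3 counts are allowed per library. KIT, the stem cell factor receptor, fell by 1.21 in J.gamma1 from 10.7 and 8.78 CPM to 3.47 and 4.92, EPOR, the erythropoietin receptor, fell by 1.09 (-0.28 in 6T-CEM, adjusted p = 0.367), and ITGA2B, a platelet integrin, fell by 2.74 from 2.68 and 2.95 CPM to 0.143 and 0.679. Of the 5 T helper 2 targets of GATA3, 6T-CEM allowed a test of 2 and J.gamma1 of 1, and PTGDR2, a prostaglandin D2 receptor, rose in each line, by 1.27 to 56.0 and 56.6 CPM in 6T-CEM and by 1.80 to 4.43 and 6.01 CPM in J.gamma1.

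Of 16 RUNX targets of blood cells, 5 rose and 2 fell among 11 tested in 6T-CEM, while 6 rose and 2 fell among 8 tested in J.gamma1, against 15.1% higher and 16.2% lower among all genes in the former line and 25.0% and 26.5% in the latter. The median log2 fold change was 0.33 in the former and 1.20 in the latter. CD4 rose by 2.18 in J.gamma1, from 5.48 and 4.79 CPM to 23.3 and 23.3, and by 1.32 in 6T-CEM. CD8A rose by 2.25 in J.gamma1 from 1.39 and 1.24 to 6.11 and 6.31 CPM and by 0.44 in 6T-CEM. ZBTB7B, the factor of CD4 helper fate, rose by 1.59 in 6T-CEM, from 14.2 and 13.7 to 41.3 and 42.6 CPM, and by 1.22 in J.gamma1. Whether RUNX proteins activate or repress each gene of this list is not given here. The part of RUNX control in the changes of the list was not tested. EOMES, a T-box factor of cytotoxic cells, fell by 1.89 in 6T-CEM, from 4.31 and 5.27 to 1.13 and 1.43 CPM, and rose by 1.23 in J.gamma1, from 8.32 and 12.1 to 23.3 and 24.6. CDKN1A, a cell cycle inhibitor, went the other way. It rose in 6T-CEM from 0.346 and 0.557 to 1.41 and 1.05 CPM (1.43, adjusted p = 0.0336) and fell by 1.04 in J.gamma1, from 4.79 and 5.61 to 2.82 and 2.21 CPM (adjusted p = 0.00305). CD8B was at 1.20 and 1.27 CPM with sh-NC against 3.36 and 2.24 with sh-LDB1 in J.gamma1, a rise of 1.19 (adjusted p = 0.00853), and its change of -0.11 in 6T-CEM was not called (adjusted p = 0.76). In 6T-CEM SPI1, the myeloid factor PU.1, fell by 1.84 and was at 1.74 CPM or less in each library. MPO, a myeloid peroxidase, was at 0.346 and 0.297 CPM with sh-NC there against 1.30 and 1.12 with sh-LDB1. MPO and CDKN1A passed the filter in 6T-CEM through the sh-LDB1 group, so their places among the 5 carry no weight. Of 6 bone genes that RUNX2 is known to activate, 1 could be tested in 6T-CEM, SPP1 at 0.188 CPM with sh-NC and 0.537 with sh-LDB1 (adjusted p = 0.115), and 0 in J.gamma1, where RUNX2 rose.

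**Figure D4:**
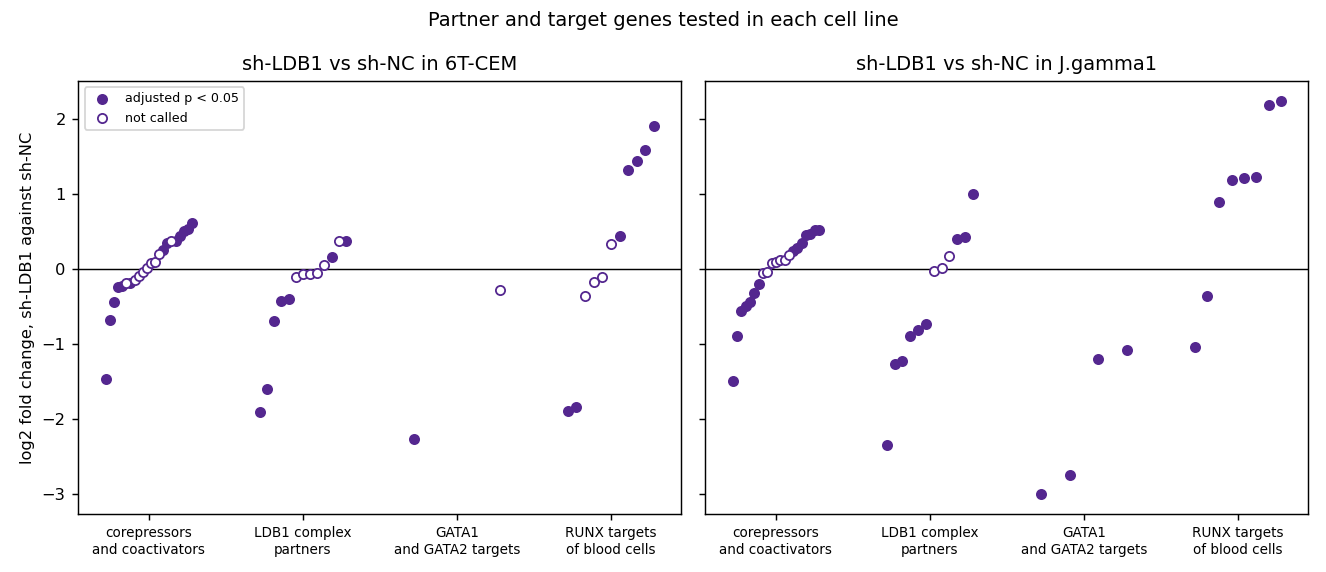
Log2 fold change of sh-LDB1 against sh-NC for each gene tested in 4 lists, in 6T-CEM (left) and J.gamma1 (right), filled where the adjusted p was under 0.05 and with genes at 3 counts or fewer in both libraries of a group left out. Corepressors and coactivators lay on both sides of 0, while RUNX targets were called higher in 5 of 11 genes in 6T-CEM, against 15.1% of all genes, and in 6 of 8 in J.gamma1, against 25.0%. MPO and CDKN1A are among the 5 and passed the filter in 6T-CEM through the sh-LDB1 group, in which they were high. Their places carry no weight, so the 5 of 11 is not a comparison with the share of all genes.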

How the data were processed

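RNA of the 8 libraries was made with TRIzol and an Illumina TruSeq RNA kit. Per the labels and the study's methods, the authors mapped paired reads of 150 bases onto hg38 by HISAT2 2.2.0, and StringTie 2.1.2 gave the level of each gene. They deposited 1 table of raw, whole counts per cell line, with a column for each library. The annotation release, the use of strand and the treatment of reads that match several genes are not given in the sources used here, so overlapping genes are uncertain. The shRNA against LDB1 in the sequenced cells is not named. Symbols, exons and coordinates came from GENCODE release 44 on GRCh38, and promoters from RefSeq on GRCh38.p14.

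edgeR 4.0.16 in R 4.3.3 was used with TMM factors, filterByExpr, robust glmQLFit and glmQLFTest, on each line by itself for the knockdown and on all 8 libraries for the differences between lines, with a call at an adjusted p under 0.05. A standard error is the size of the log2 change over the root of its F statistic. The steps were tested on simulated counts, where the share of false calls was above the nominal level. Alternatives were other factors, other filters, DESeq2 1.42.0, limma-voom (limma 3.58.1), a replicate block, a fit to all libraries, a log2 threshold of 1 and each library left out. Figures were drawn with matplotlib.

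The genes, lists and tests were chosen with earlier results of these data known. The text names the 9 members, LDB1, exon-overlapping genes, the 3 nearest patterns of 4 members and, per list and line, up to 4 genes with the largest change among those called with a mean of 1 CPM or more in a group. Some genes of the lists are not reported here by name. SPP1, CDKN1A, CD8B, LMO1, TLE2 in 6T-CEM and the single markers were singled out after their values were seen. Total counts of 26160492 to 30604977 set the precision, and error terms cover these libraries alone.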

Additional observations from a re-analysis of the deposited data

Results flagged for a closer look

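With 2 libraries per group, no library could be tested as an outlier. The results below were picked out because their change differed between the cell lines in the test of the difference in the fit to all 8 libraries (edgeR's quasi-likelihood test, Benjamini-Hochberg adjustment). Values are the log2 change in J.gamma1 minus that in 6T-CEM. Among the RUNX genes the difference was -0.64 for RUNX1, 1.44 for RUNX2 and 0.63 for RUNX3, and for CBFA2T2 it was -0.58. LDB1 itself had 0.70 (adjusted p = 0.000237), so cell line and strength of the knockdown cannot be told apart in these results. Among partners and corepressors it was -1.17 for TAL1 (adjusted p = 2.42e-06), -0.87 for IRF2BP2, 0.62 for SSBP4, -0.82 for TLE4, -0.57 for TLE3 and 0.32 for SIN3B (adjusted p = 0.0386). Among RUNX targets it was 3.13 for EOMES (standard error 0.30, adjusted p = 2.39e-05), 1.80 for CD8A and 0.87 for CD4, and, for genes chosen after their values were seen, -2.48 for CDKN1A (adjusted p = 0.00215) and 1.29 for CD8B (adjusted p = 0.0277). Genes at 3 counts or fewer in both libraries of a group were left out. The results above cover genes named in the earlier text, and other genes of the lists differed as well. Among them were PRMT1 (0.60, adjusted p = 7.66e-05), HDAC2 (0.37, adjusted p = 0.00124) and GPS2 (-0.41, adjusted p = 0.00586), by the same edgeR test.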

How the results depend on the processing

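Of 580 values of the 9 genes and LDB1 under an alternative, 556 kept their direction and their side of the threshold, 14 lost a call, 8 gained one and 2 reversed. The reversals were small differences that were not called, the difference of CBFB at 0.085 without 6T-CEM sh-LDB1 replicate 1 (leave-one-out range -0.19 to 0.085) and RUNX1 between the sh-NC groups at -0.0057 without 6T-CEM sh-NC replicate 1 (range -0.0057 to 0.095). With library totals alone as scaling, RUNX1 was called between the sh-NC groups (0.19, adjusted p = 0.00764), where the median of all genes was 0.19 against 0.045 with TMM. With a log2 difference beyond 1 also required, the members called were 1 lower and 0 higher in 6T-CEM, 2 lower and 0 higher in J.gamma1, 1 for the difference between the lines and 3 between the sh-NC groups. The 0 members higher in 6T-CEM became 1 with DESeq2 and 1 with the replicate block, and the 2 higher in J.gamma1 became 1 without a filter on low counts and 1 in the fit to all 8 libraries, in each case through CBFB. The cause was not tested.

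Leaving out 1 library at a time, the members called were 4 to 6 lower and 0 to 1 higher in 6T-CEM, 5 to 6 lower and 1 to 2 higher in J.gamma1, 4 to 5 for the difference and 4 to 6 between the sh-NC groups, the lone library of a group being assumed to vary like the others. The 5023 genes called in 6T-CEM became 3234 without sh-NC replicate 1, 3339 without sh-NC replicate 2 and 824 with the log2 threshold, which left 2386 of 8870 in J.gamma1, 1088 of 4524 for the difference and 6003 of 12188 between the sh-NC groups. No pairing of libraries by replicate number was seen, as the correlation of same-numbered deviations lay between -0.0143 and 0.0514. With 2 libraries per group this does not exclude a pairing. The block changed no call of the 9 genes other than CBFB in 6T-CEM. All 28 family shares moved by more than 1 SD with the longest transcript in place of the exon union.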
